A study of Rattus norvegicus with 11 samples.

Results

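Cdk2, the kinase that partners cyclins E and A at the start of DNA replication, was examined in rat fat together with 9 genes of the same machinery. These were the G1 kinases Cdk4 and Cdk6, the cyclins Ccne1, Ccne2 and Ccna2, the kinase inhibitors Cdkn1a and Cdkn1b, and the proliferation genes Mki67 and Mcm2. All 10 symbols were found once each among 25275 genes of the count table, and all 10 were among the 12846 genes with enough counts to be tested. Cdk2 was chosen because it was known to be higher with follicle-stimulating hormone (FSH) in these same rats. The other 9 were chosen by role, to see whether proliferation genes were higher too.

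RNA was sequenced from retroperitoneal white adipose tissue of 11 female Wistar rats, 1 library per rat. Animals entered at 10 weeks of age, were fed western diet during 6 weeks before the ovaries were taken out, and were then given degarelix, which blocks the receptor for gonadotropin-releasing hormone and so lowers the animal's own FSH and luteinizing hormone. Osmotic pumps then carried FSH (daily dose 6 µg per kg) in 5 rats, called degarelix plus FSH, or vehicle in 6 rats, called degarelix only. After 12 days of limited food and 7 days of free food, fat was collected following 4 h without food, when the animals were 19 weeks old. There was no group without degarelix or without ovariectomy. The tissue was whole fat, so fewer cells of a type and less RNA per cell cannot be told apart.

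The cell cycle is driven by cyclin-dependent kinases, which are active only when bound to a cyclin. In G1, cyclin D with Cdk4 or Cdk6 begins to phosphorylate the retinoblastoma protein, and cyclin E with Cdk2 completes this, releasing the E2F factors that switch on replication genes. Cyclin A with Cdk2 then acts through S phase. The inhibitors p21 (Cdkn1a) and p27 (Cdkn1b) bind and hold back cyclin-Cdk2 complexes. Mature adipocytes seldom divide, and most dividing cells of fat are progenitors, vessel cells and immune cells.

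The start-site regions of Cdk2 and of the proliferation genes Mki67 and Mcm2 are shown because the question is whether these genes move together. RefSeq held such a window, 250 bases before to 50 after the start, for 7 of the 10 genes, in build GRCr8. That build is not the one used for counting. Capitals mark the letters searched for on both strands. These were the E2F words TTTCCCGC, TTTGGCGC, TTTCGCGC and TTTGCCGC, the cell cycle homology region word TTTGAA, and the CCAAT box.
Cdk2 (chr7:1721829-1722128, minus strand): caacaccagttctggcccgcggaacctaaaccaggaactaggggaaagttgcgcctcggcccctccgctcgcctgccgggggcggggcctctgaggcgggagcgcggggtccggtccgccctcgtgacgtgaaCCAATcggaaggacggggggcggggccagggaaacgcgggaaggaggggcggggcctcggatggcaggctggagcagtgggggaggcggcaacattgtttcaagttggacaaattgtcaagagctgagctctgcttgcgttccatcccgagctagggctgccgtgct
Mki67 (chr1:199952544-199952843, minus strand): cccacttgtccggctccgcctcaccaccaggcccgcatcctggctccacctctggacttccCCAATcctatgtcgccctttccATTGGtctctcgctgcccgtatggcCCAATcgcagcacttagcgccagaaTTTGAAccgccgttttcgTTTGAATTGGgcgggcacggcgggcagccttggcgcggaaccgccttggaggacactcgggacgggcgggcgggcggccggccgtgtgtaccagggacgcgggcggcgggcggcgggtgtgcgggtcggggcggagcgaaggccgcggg
Mcm2 (chr4:122918045-122918344, minus strand): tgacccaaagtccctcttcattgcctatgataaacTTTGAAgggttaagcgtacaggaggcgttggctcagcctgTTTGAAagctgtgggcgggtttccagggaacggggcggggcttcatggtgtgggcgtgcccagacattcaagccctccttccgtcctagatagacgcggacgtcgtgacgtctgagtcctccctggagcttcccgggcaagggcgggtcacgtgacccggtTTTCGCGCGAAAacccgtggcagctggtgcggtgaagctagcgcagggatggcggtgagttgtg
The Mcm2 window held 2 overlapping E2F words on opposite strands and 2 TTTGAA words. The Mki67 window held 2 TTTGAA words and 4 CCAAT boxes, the last of which shares a base with a TTTGAA word. The Cdk2 window held 1 CCAAT box and neither of the other words. The windows of Cdk4, Ccne1, Cdkn1a and Cdkn1b, not shown, also held no E2F word and no TTTGAA, so this lack does not set Cdk2 apart. Over all 33469 such windows, 2.14% held an E2F word, 18.3% TTTGAA and 37.5% a CCAAT box. These matches describe letters only, and nothing follows from them about binding.

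Total counts per library lay between 13163021 and 23694602, so 0 counts in a library leave room for 0.127 to 0.228 CPM at most (a floor of 3 counts, for counting error only). Checked against the tissue label, the adipocyte gene Adipoq was at 11371 ± 1806 CPM in rats on degarelix plus FSH and 11154 ± 862 CPM in rats on degarelix only. CPM are counts relative to the scaled library total, with SD over n = 5 and n = 6 rats. Degarelix plus FSH replicate 3 stood apart on the first principal component, had the lowest total and had 13170 CPM of summed nerve markers, against 3145 to 4446 CPM in the other FSH rats. Values without that rat are given where they differ in direction or by over 1.5 times.

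Cdk2 (ENSRNOG00000006469) had 29.6, 31.6, 31.5, 27.2 and 29.3 CPM in rats 1 to 5 on degarelix plus FSH. In the 6 rats on degarelix only it ranged from 18.2 CPM through a median of 19.5 CPM to 20.6 CPM. Every FSH rat lay above every degarelix only rat, and the spread within each group was narrow. The means were 29.8 ± 1.80 CPM with FSH and 19.5 ± 0.924 CPM without, a fold of 1.53 and a log2 change of 0.61 ± 0.06 (SE). Since Cdk2 was picked for this difference, it is given as a description, and its place among the genes past the threshold is not read as support. The value lay between 0.59 and 0.64 with any 1 rat left out.

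**Figure D1:**
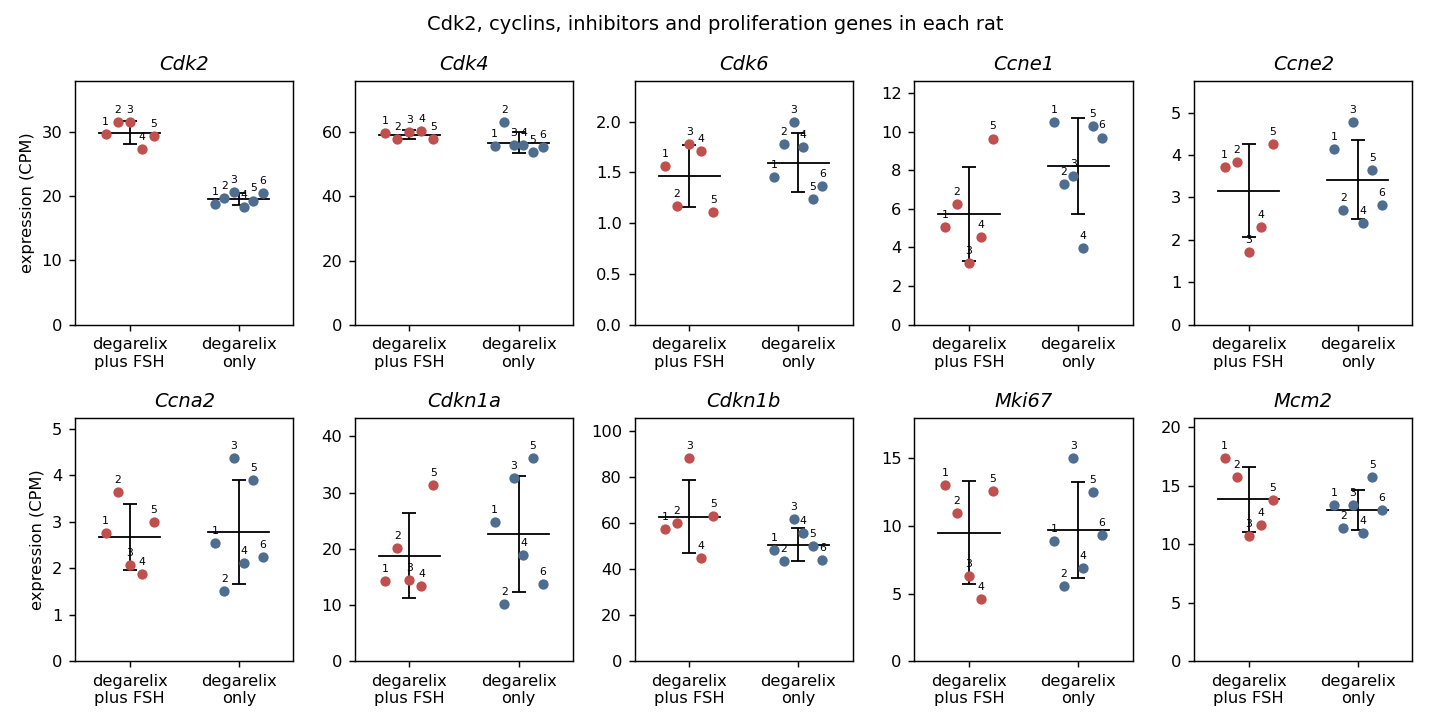
Expression of the 10 genes in CPM (linear axes from 0) in each rat, with degarelix plus FSH in red and degarelix only in blue; numbers are replicate numbers, lines and bars the group mean and SD. Cdk2 separates the groups, with 27.2 to 31.6 CPM against 18.2 to 20.6 CPM, while the groups overlap for the other 9 genes.

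None of the other 9 genes passed the test between the groups. Of the 10 genes 1 (Cdk2) passed an adjusted p of 0.05 in edgeR's quasi-likelihood test over all genes, where 2.27% of the genes tested passed (292 genes, 155 higher and 137 lower). Likewise, the groups did not overlap at 1 of the 10 genes, against 4.34% of all genes. The count of 10 includes the gene chosen for its change and nothing is read from it. The 95% interval of the log2 change included 0 for all 9 others.

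Of the G1 kinases, Cdk4 (ENSRNOG00000025602) was measured with little spread. It had 59.9, 57.8, 60.3, 60.5 and 58.1 CPM in FSH rats 1 to 5, against 53.9 to 63.4 CPM (median 55.8 CPM) in rats on degarelix only. The overlap rested on degarelix only replicate 2, at 63.4 CPM, since all 5 FSH rats lay above the other 5 rats on degarelix only (53.9 to 56.1 CPM). The log2 change was 0.06 ± 0.05 (SE; 95% interval -0.05 to 0.17, edgeR adjusted p = 0.481), and 0.10 without that rat (edgeR adjusted p = 0.228). Cdk6 (ENSRNOG00000009258), the other cyclin D partner, was low in fat, with at most 42 counts in a library. It had 1.56, 1.17, 1.78, 1.71 and 1.11 CPM in FSH rats, against 1.24 to 1.999 CPM (median 1.601 CPM) without FSH, and a log2 change of -0.13 ± 0.19 (interval -0.55 to 0.29, edgeR adjusted p = 0.721). It was -0.21 without FSH replicate 3 and -0.04 without FSH replicate 5.

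Among the cyclins that activate Cdk2, Ccne1 (cyclin E1, ENSRNOG00000014786) had the lowest point estimate of all 10 genes. Its values were 5.04, 6.23, 3.19, 4.53 and 9.64 CPM in FSH rats, against 3.95 to 10.5 CPM (median 8.69 CPM) in rats on degarelix only. Of the FSH rats, 4 lay below the degarelix only mean and FSH replicate 5 above it, and degarelix only replicate 4 was as low as the low FSH rats. The log2 change was -0.51 ± 0.29 (interval -1.15 to 0.13, edgeR adjusted p = 0.323), and -0.79 without FSH replicate 5.

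Ccne2 (cyclin E2, ENSRNOG00000008055) had 3.72, 3.82, 1.71, 2.29 and 4.26 CPM in FSH rats, against 2.39 to 4.78 CPM (median 3.24 CPM) in rats on degarelix only. Its log2 change was -0.10 ± 0.26 (interval -0.66 to 0.46, edgeR adjusted p = 0.855). FSH replicates 3 and 4 were the 2 lowest of all 11 rats. Ccna2 (cyclin A2, ENSRNOG00000015423), the S phase partner of Cdk2, had 2.76, 3.64, 2.08, 1.88 and 3.003 CPM in FSH rats, against 1.52 to 4.36 CPM (median 2.39 CPM) without FSH. Every FSH rat lay inside the range of the others, and the log2 change was -0.04 ± 0.28 (interval -0.65 to 0.57, edgeR adjusted p = 0.949).

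The 2 inhibitors had point estimates of opposite sign and neither passed. Cdkn1a (p21, ENSRNOG00000000521), a target of p53, had 14.3, 20.1, 14.5, 13.4 and 31.4 CPM in FSH rats, against 10.3 to 36.1 CPM (median 21.8 CPM) in rats on degarelix only. The spread between rats was wide in both groups, and the log2 change was -0.27 ± 0.34 (interval -1.01 to 0.48, edgeR adjusted p = 0.677). It was -0.54 without FSH replicate 5 and -0.09 without degarelix only replicate 5. Cdkn1b (p27, ENSRNOG00000007249), which holds cyclin E-Cdk2 inactive in resting cells, had 57.7, 60.2, 88.2, 44.8 and 63.0 CPM in FSH rats, against 43.5 to 62.02 CPM (median 49.2 CPM) in rats on degarelix only. FSH replicates 3 and 5 lay above all rats without FSH, and FSH replicate 4 lay near their low end. The log2 change of Cdkn1b was 0.31 ± 0.15 (interval -0.02 to 0.64, edgeR adjusted p = 0.248), and 0.16 without FSH replicate 3 (edgeR adjusted p = 0.479).

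The proliferation genes gave estimates near 0. Mki67 (ENSRNOG00000028137), which encodes the Ki-67 antigen of cycling cells, had 12.96, 10.9, 6.31, 4.59 and 12.5 CPM in FSH rats, against 5.53 to 14.96 CPM (median 9.10 CPM) in rats on degarelix only. The means were 9.46 ± 3.79 CPM with FSH and 9.67 ± 3.52 CPM without (log2 change -0.02 ± 0.31, interval -0.70 to 0.66, edgeR adjusted p = 0.977). FSH replicates 3 and 4 were low and FSH replicates 1, 2 and 5 high, so the SD within each group was larger than the difference between the means.

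Mcm2 (ENSRNOG00000016316), a subunit of the helicase loaded at replication origins, had 17.3, 15.8, 10.7, 11.7 and 13.8 CPM in FSH rats. In rats on degarelix only it ranged from 10.99 to 15.7 CPM (median 13.1 CPM). The log2 change was 0.10 ± 0.13 (interval -0.19 to 0.39, edgeR adjusted p = 0.690), with 2 FSH rats above and 1 below all rats without FSH; without 1 FSH rat it ran from 0.01 (replicate 1) and 0.05 (replicate 2) to 0.18 (replicate 3). The signs of Ccne2, Ccna2 and Mki67 turned positive without FSH replicate 3, at 0.06, 0.04 and 0.09, so no direction is given for them.

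**Figure D2:**
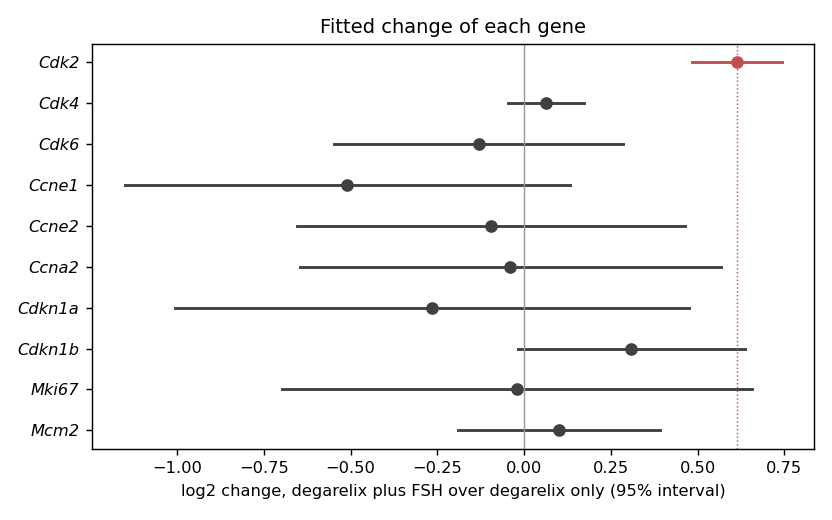
Fitted log2 change (degarelix plus FSH over degarelix only) of each gene with its 95% interval; the dotted line is the Cdk2 estimate of 0.61. The intervals of the 9 other genes include 0, and those of Mki67 and Cdkn1b reach the Cdk2 estimate.

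The intervals show how large a rise could have been missed. They end below the Cdk2 estimate of 0.61 for 7 of the 9 other genes (Cdk4, Cdk6, Ccne1, Ccne2, Ccna2, Cdkn1a and Mcm2). Those of Mki67 and Cdkn1b reach it, at 0.66 and 0.64, so for these genes a change of that size lies within the interval. The intervals include the spread between rats as well as counting error. This sets intervals beside an estimate that was chosen for its size and is no test of the difference.

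Between rats of the same treatment the genes did not all follow Cdk2. In rats on degarelix only, replicates 3 and 5 had the highest Ccna2, Cdkn1a and Mki67 values, at 4.36 and 3.90, 32.6 and 36.1, and 14.96 and 12.5 CPM. Replicates 2 and 4 had the lowest Ccna2, Mki67, Ccne2 and Mcm2 values. Cdk2 in the same 4 rats had 20.6 and 19.3 CPM (replicates 3 and 5) and 19.6 and 18.2 CPM (replicates 2 and 4). With FSH, replicate 3, the rat that stood apart above, was among the highest for Cdk2, at 31.5 CPM, and the lowest for Ccne1, Ccne2 and Mcm2. Other FSH rats went the other way. Replicate 4 was the lowest FSH rat for Cdk2 (27.2 CPM), Ccna2 (1.88 CPM), Mki67 (4.59 CPM), Cdkn1a (13.4 CPM) and Cdkn1b (44.8 CPM), but the highest for Cdk4 (60.5 CPM). Replicate 2 was the highest for Cdk2 (31.6 CPM) and Ccna2 (3.64 CPM).

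**Figure D3:**
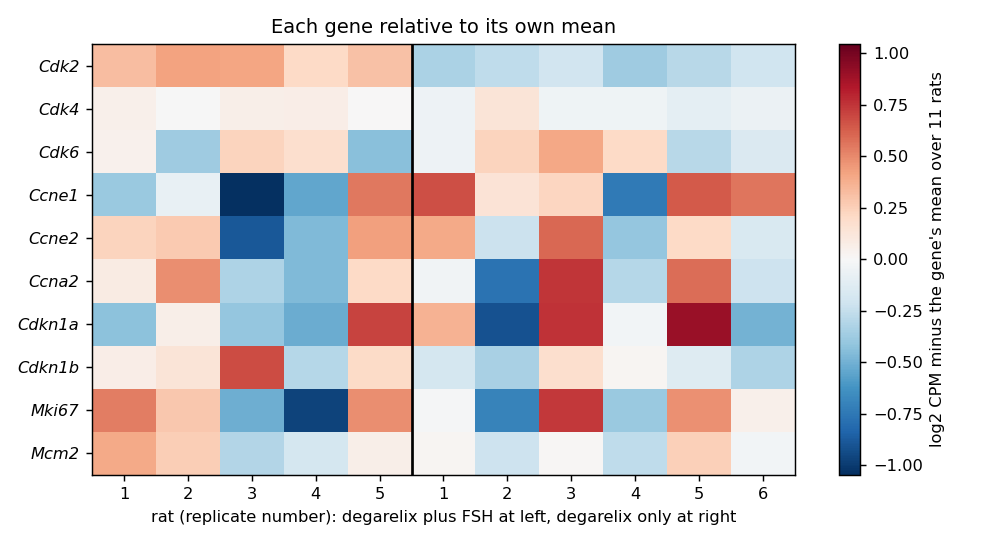
Log2 CPM of each gene minus its own mean over the 11 rats (colour), with degarelix plus FSH rats 1 to 5 at left and degarelix only rats 1 to 6 at right. The Cdk2 row changes colour at the line between the groups, while the rows of Ccne1, Ccne2, Ccna2, Cdkn1a, Mki67 and Mcm2 change from rat to rat within each group.

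The relation of Cdk2 to each of the 9 genes was computed within the 6 rats on degarelix only, since the groups are separate for Cdk2 and the FSH group is smaller than 6. Pearson's r of log2 CPM on the TMM-scaled total was highest for Mki67 (r = 0.47, p = 0.349; Spearman's rho = 0.54, p = 0.297; two-sided exact permutation tests) and lowest for Cdkn1a (r = -0.05, p = 0.914; rho = -0.03, p = 1, exact permutation). Adjusted over the 9 relations, every Pearson p was 0.938 and every Spearman p was 1 (exact permutation). Without replicates 3 and 4, the 2 rats farthest from the Cdk2 median, r for Mki67 was -0.12 (n = 4). The order of the genes depended on the scaling. Cdk6 and Cdk4 had r = 0.13 and 0.07, but on the library total alone they were highest, at 0.53 and 0.52, with Mki67 at 0.35 and Ccne1 at -0.07 (each adjusted p = 0.908, exact permutation). No relation was detectable with 6 rats under either scaling. Cdk2 itself ranged only from 18.2 to 20.6 CPM in these rats, at 312 to 465 counts. With so little spread, counting error could hide a relation, so none is read as present or absent.

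The 5 genes most like Cdk2 were sought by Pearson's r of log2 CPM centred on each group's mean, over 11 rats and 11554 named genes of at least 1 CPM. They were Lhfpl2 (r = 0.86), Tmc6 (0.85), Egr1 (0.85), Egr2 (0.84) and Ranbp1 (0.81), where the median gene had -0.01. Egr1 and Egr2 are immediate early transcription factors and Ranbp1 binds the Ran GTPase of nuclear transport. These are the highest of many values and carry no test. Cdk2 varied little within each group, so counting error weighs in all of them. Among the 9 genes the same measure ran from -0.06 for Cdk6 to 0.50 for Cdkn1b, with 0.42 for Mki67 and 0.36 for Ccna2.

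The wider cell cycle was then read from 8 lists of other genes, chosen by role. Of their 119 genes tested, 0 passed the threshold in either direction (edgeR, over all genes), against 1.21% of all genes higher and 1.07% lower. The median change in log2 units was -0.01 (0.01 over all genes), with 55 point estimates above 0 and 64 below. At an unadjusted p under 0.05 there were 10 genes (8.40%), against 22.6% of all genes. DESeq2 called 3 of the 119 (Pkmyt1, Cables1 and Npat), where it called 1128 of all 12846 genes. Likewise, limma-voom called 2 (Pkmyt1 and Npat), where it called 631 of 12846. Without FSH replicate 4 edgeR called 1, Npat, where 553 of 12977 genes passed. The highest change was that of the cyclin D2 gene Ccnd2, at 0.55 ± 0.25 (edgeR adjusted p = 0.211), and the lowest that of Cdc6, at -0.52, so no estimate was as high as that of Cdk2.

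Of 7 other cyclins and cell cycle kinases tested, none passed (median -0.05). The D cyclins that partner Cdk4 and Cdk6 were represented by Ccnd3, with 159 ± 21.4 CPM with FSH and 177 ± 19.8 CPM without (log2 change -0.16 ± 0.10), and Ccnd1, with 87.9 ± 13.7 CPM with FSH and 91.2 ± 12.7 CPM without (-0.05 ± 0.12). Of 11 genes listed as regulators of Cdk2 and related kinases, none passed (median -0.01). The Cdk-binding protein gene Cables1 had 35.6 ± 6.41 CPM with FSH and 50.01 ± 8.53 CPM without (-0.49 ± 0.14, edgeR adjusted p = 0.0818), and the inhibitory kinase Wee1 had 0.16 ± 0.10. None of 3 other Cdk inhibitors passed (median 0.05), with Cdkn2c at 0.05 ± 0.17 and Cdkn1c at 0.30 ± 0.25. Without FSH replicate 3 the median was -0.02 for the other cyclins and kinases and 0.01 for the listed regulators. That of the other inhibitors was then -0.015.

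The ubiquitin ligase parts that turn over cyclin E and p27 gave no call among 8 genes (median -0.09), with Skp1 at -0.10 ± 0.06 and Cul3 at -0.08 ± 0.05. Among 17 genes of the Rb and E2F family none passed (median -0.03), with E2f6 at -0.21 ± 0.16 and Rbl2 at -0.03 ± 0.07. The 34 replication genes had a median of 0.02, with 18 point estimates above 0 and 16 below, and none passed. Of these genes 3, all higher with FSH, had an unadjusted edgeR p under 0.05, a level that 22.6% of all genes reached. The clamp loader Rfc1 had 49.7 ± 2.73 CPM with FSH and 50.9 ± 2.30 CPM without, and the sliding clamp Pcna had 42.8 ± 2.89 CPM with FSH and 39.7 ± 2.22 CPM without (0.11 ± 0.06). The 10 genes of nucleotide supply and histone gene control had a median of 0.00, with Rrm1 at -0.15 ± 0.07 and Slbp at -0.09 ± 0.09. The 29 mitosis genes had a median of 0.01, with Smc2 at 0.07 ± 0.08 and Dlgap5 at 0.04 ± 0.13. Without FSH replicate 3 the median was 0.12 for mitosis, 0.05 for replication and 0.04 for nucleotide supply, again with no call. The Rb and E2F median was then -0.004.

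**Figure D4:**
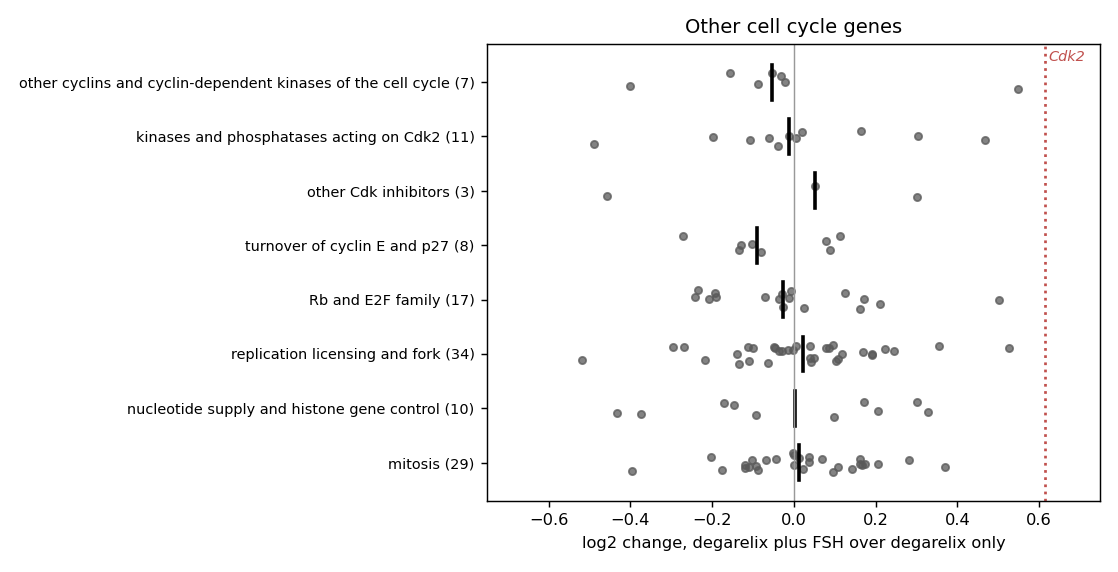
Log2 change (degarelix plus FSH over degarelix only) of each gene tested in 8 cell cycle lists (points; number tested in brackets), with the list median as a bar and Cdk2 as a dotted line at 0.61. The medians lie between -0.09 and 0.05 and every point lies left of the line. Cdk2 was chosen for its change in these rats, so this order is no test.

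Because Cdkn1a is a p53 target, 16 other p53 targets were read beside it, and 0 passed (edgeR; 3 had an unadjusted p under 0.05, a level that 22.6% of all genes reached). Without degarelix only replicate 4, 1 passed, lower (Aen, log2 change -0.46, edgeR adjusted p = 0.0176), in a fit where 532 of 12790 genes passed. The 16 targets had a median log2 change of 0.05, with 9 estimates above 0 and 7 below. Phlda3, an inhibitor of Akt, had 525 ± 94.1 CPM with FSH and 480 ± 96.9 CPM without (0.13 ± 0.15). Ccng1 (cyclin G1) had 155 ± 11.7 CPM with FSH and 176 ± 21.5 CPM without (-0.18 ± 0.09).

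The genes beside Cdk2 on its chromosome were examined because overlapping genes can share reads where the strand setting of the counting is unknown. In the RefSeq annotation of build GRCr8, Pmel, on the opposite strand, overlaps the Cdk2 gene by a few bases at its start. Pmel had 1.40 to 2.004 CPM in FSH rats, against 1.08 to 1.52 CPM (median 1.29 CPM) in rats on degarelix only (log2 change 0.32 ± 0.17, edgeR adjusted p = 0.282). The part of shared reads was not tested. Of 6 neighbouring genes tested none passed. Rab5b, on the other side of Cdk2, had a log2 change of -0.16 ± 0.08. Dgka, beyond Pmel, had 43.4 ± 4.33 CPM with FSH and 34.8 ± 3.35 CPM without (0.32 ± 0.08, edgeR adjusted p = 0.0636). Dgka passed without FSH replicate 4 (0.37, edgeR adjusted p = 0.0314), where 553 of 12977 genes passed.

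Cell type markers were summed per rat to stand beside these values. Endothelial markers (8 genes) held 1617 to 2636 CPM in FSH rats and 1424 to 1931 CPM in rats on degarelix only (means 2045 ± 393 CPM with FSH and 1631 ± 170 CPM without; p = 0.0325, 0.291 adjusted over 13 marker lists, two-sided exact permutation test over 462 splits). The difference of 414 CPM was 266 CPM without FSH replicate 1. All 8 had estimates above 0 and 1 passed, against 1.21% of all genes higher. This was the receptor gene Tek, with 135 ± 19.4 CPM with FSH and 99.96 ± 9.91 CPM without (log2 change 0.44 ± 0.10, edgeR adjusted p = 0.0431), singled out after its values were seen. With 1 rat left out, 0 passed in 8 of 11 fits. Without FSH replicate 4, 3 passed, in a fit where 553 of 12977 genes passed. The part of endothelial RNA in the Cdk2 difference was not tested. Smooth muscle and pericyte markers (8 genes) held 965 to 1238 CPM with FSH and 684 to 1088 CPM without (p = 0.0628, adjusted p = 0.291, exact permutation). Adipocyte markers (9 genes) held 51807 to 64220 CPM with FSH and 49142 to 64207 CPM without (p = 0.924, adjusted p = 0.998, exact permutation).

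The groups overlapped for markers of immune and red cells. Macrophage markers (8 genes) held 187 to 400 CPM with FSH and 203 to 459 CPM without, and T and NK cell markers (8 genes, Gzmb at 0) 23.2 to 54.8 CPM with FSH and 24.7 to 54.1 CPM without. Red cell precursor markers (5 genes) held 330 to 1250 CPM with FSH and 93.8 to 643 CPM without (p = 0.0671, adjusted p = 0.291, exact permutation). Their difference in means was 323 CPM, and 159 CPM without FSH replicate 4. Neutrophil markers (6 genes) held 339 to 502 CPM with FSH and 393 to 806 CPM without (means 400.4 ± 63.04 CPM with FSH and 592 ± 197 CPM without; p = 0.0974, adjusted p = 0.317, exact permutation). Markers of adipocyte progenitors and fibroblasts (8 genes) held 3613 to 5625 CPM with FSH and 3700 to 5276 CPM without (p = 0.916, adjusted p = 0.998, exact permutation). They do not report whether these cells divide. The kidney markers Slc34a1, Umod and Aqp2 were at 0 in all rats.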

How the data were processed

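The deposited table holds whole-number counts per Ensembl gene and rat with no normalization, as its values show. The submitters' processing notes name STAR, edgeR, DESeq2 and rn6. Counting program, annotation and strand setting are not stated in those sources, so genes that overlap or have near-identical copies are uncertain. One gene (Pcmt1) was left out because a cell holds a letter. Groups and replicate numbers came from the labels.

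From these counts, edgeR 4.0.16 in R 4.3.3 was run on 12846 genes kept by filterByExpr (TMM factors, robust quasi-likelihood test, intercept and group), with Benjamini-Hochberg adjustment over all of them and a threshold of 0.05. CPM are relative to the TMM-scaled total. Intervals are 95% from the quasi-likelihood SE. All tests are two-sided. The step was tested on simulated data. In chi-square tests between pairs of libraries the value per degree of freedom was 21.3 or more, so none was a repeat. The labels call the replicates biological, 1 rat each.

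The members and lists were chosen with earlier results of these data known. Named genes are the 10 members, list genes past the threshold or, where none passed, the 2 most abundant, and the 5 genes most like Cdk2; marker lists are given by their list values. Pecam1 is not analysed here, and Adipoq stands for the tissue check. Ccnd2, Cdc6, Pmel, Tek, Aen and the genes in the closing section were singled out after their values were seen. Of 252 list symbols 245 matched. Log2 values for correlations used a prior count of 2. Alternatives were 3 other scalings, 2 other filters, each rat left out, DESeq2 1.42.0, voom with quality weights (limma 3.58.1), a block by replicate number, no robust estimation and thinning to the smallest total.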

Additional observations from a re-analysis of the deposited data

Results flagged for a closer look

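Within groups of 5 or 6 rats, the highest or lowest value was set against the rest for the 10 genes, the 13 summed marker lists and the library totals (48 groups, of which chance gives about 1 in 20). There were 5 values that stood apart. Degarelix only replicate 2 had 63.4 CPM of Cdk4, where the other 5 rats of its group had 53.9 to 56.1 CPM. Degarelix plus FSH replicate 3 was high for summed nerve markers, with 13170 CPM where the remaining FSH rats had 3145 to 4446 CPM, and for mesothelial markers, at 13.95 CPM against 2.03 to 3.36 CPM. Red cell precursor markers were high in degarelix plus FSH replicate 4, at 1250 CPM against 330 to 539 CPM. Summed mast cell markers reached 76.2 CPM in degarelix only replicate 4, and 36.9 to 44.01 CPM in the rest of its group.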

How the results depend on the processing

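The Cdk2 estimate lay between 0.59 and 0.68 in 21 alternatives. None of the other 9 genes passed in any alternative that gave it an adjusted p (DESeq2 gave none for Cdk6). Signs turned for Ccna2, Mki67 and Ccne2. Ccna2 was 0.0353 on the library total alone, 0.0730 with limma-voom, 0.0442 after thinning and -0.17 to 0.13 with 1 rat left out. Mki67 was 0.0599 on the library total, 0.105 with limma-voom and -0.16 to 0.16 with 1 rat left out, and Ccne2 was 0.0360 after thinning and -0.23 to 0.0553 with 1 rat left out. On the library total alone, r of Cdk2 was -0.0698 with Ccne1, against 0.45 on the TMM-scaled total, and 0.38 with Cdkn1b, against -0.03.

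The count of genes past the threshold depended on single rats and on the tool. It was 292 (155 higher, 137 lower), 1128 with DESeq2 (566, 562), 631 with limma-voom (328, 303), and 30 to 553 with 1 rat left out (22 to 274 higher, 8 to 279 lower); on the library total alone 88 were lower. The replicate numbers do not pair rats: deviations of same-numbered rats correlated between -0.11 and 0.13 over genes, and 0 of 5 FSH rats correlated best with their own number. With the replicate block 14 genes passed (10 higher, 4 lower).

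With 1 rat left out, group differences in summed markers (FSH minus degarelix only, CPM) turned sign for adipocyte (-2477 to 1282), progenitor (-229.6 to 273), macrophage (-31.2 to 36.2), B cell (-0.20 to 0.32), mast cell (-8.70 to 1.44), mesothelial (-0.76 to 2.33) and nerve markers (-730 to 1777). On the library total alone they turned for adipocyte (2283) and macrophage markers (11.7). The difference in total counts, -3577440 (p = 0.0649, exact permutation), ran from -4444350 to -2775670, with exact permutation p from 0.0286 to 0.119. Depth limits Cdk6 and Ccna2 most, with at most 42 and 72 counts per library.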

Other observations

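Among the 119 cell cycle list genes tested, the groups did not overlap at 1 (0.840%, against 4.34% of all genes), Npat. This gene encodes the coactivator of histone genes that cyclin E-Cdk2 phosphorylates. Npat had 14.1, 16.3, 14.2, 13.4 and 16.2 CPM in rats on degarelix plus FSH, against 10.7 to 12.9 CPM in rats on degarelix only (log2 change 0.30 ± 0.08, edgeR adjusted p = 0.0632 over all genes). It passed in edgeR without FSH replicate 4 (0.34, adjusted p = 0.0427), in DESeq2 and in limma-voom. Those fits called 553, 1128 and 631 genes, against 292 in the main fit. Npat was singled out after its values were seen. The inhibitory kinase Pkmyt1 had 8.82 ± 1.68 CPM with FSH and 6.39 ± 0.805 CPM without (0.47 ± 0.14, edgeR adjusted p = 0.0889). The p53 target Aen had 12.9 ± 0.755 CPM with FSH and 17.1 ± 2.31 CPM without (-0.40 ± 0.10, edgeR adjusted p = 0.0540). Aen passed without degarelix only replicate 4, where 532 genes passed. E2f1 had 15.3 ± 1.18 CPM with FSH and 18.05 ± 2.08 CPM without (-0.24 ± 0.09, edgeR adjusted p = 0.147). Erbb3, which lies near Cdk2, had 43.6 CPM in degarelix plus FSH replicate 3, the rat with the highest nerve markers, and 3.12 to 4.89 CPM in the other FSH rats.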
